A study of Mus musculus with 8 samples.

Results

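The genes described here encode the drug- and steroid-metabolising cytochromes P450 Cyp3a11, Cyp3a13, Cyp3a25, Cyp3a44, Cyp2a4, Cyp2a5 and Cyp1a2 of mouse liver, with P450 oxidoreductase (Por) and the heme enzyme Alas1. They were taken as every probe set that the platform annotation assigns to these 9 symbols. Of the 9, 8 had a listed probe set, out of 19324 genes named on the array, and Por was not analysed here. These 8 genes were read on 8 probe sets: Alas1 had 2, and Cyp2a4 and Cyp2a5 shared 1 and are reported together. That left 7 separate features, all of which passed the filter on dim signals, as did 12488 of the 18824 features of the whole array.

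The data were Affymetrix arrays of mouse liver, 1 for each of 2 arms on days 0, 1, 2 and 5. All mice carried a floxed Met gene with a tamoxifen-inducible Cre, given in the labels both as METfl/fl: TamCre+/+ and as Metff/ff:ERCre+/+. In the MET KO + EGFRi arm, 5 injections of tamoxifen (100 µl at 10 mg/ml in corn oil) were used to delete Met systemically, and canertinib, an inhibitor of the EGF receptor kinase, was fed from the day before TCPOBOP with an aim of 80 mg/kg per day. Control littermates of the same genotype received corn oil in place of tamoxifen, and canertinib is named in the labels for the MET KO mice only. Both arms were given TCPOBOP by gavage at 3 mg/kg, an activator of the constitutive androstane receptor CAR (Nr1i3) that induces P450 genes and makes mouse hepatocytes divide. The labels do not say what drives the Cre, how many livers were pooled, the age or sex of the mice, or whether day 0 livers had seen TCPOBOP. Loss of Met, tamoxifen and canertinib always came together, so their parts cannot be told apart. The comparisons ask how the enzymes differ between the arms, how they change after TCPOBOP, and whether that change differs between the arms.

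Cytochromes P450 hold a heme group, oxidise drugs, steroids and bile acids in the endoplasmic reticulum, and take electrons from Por and, for some reactions, from cytochrome b5. Alas1 makes 5-aminolevulinate in the mitochondrion, the rate-limiting step of liver heme synthesis, and in liver its gene is induced along with P450 genes by activators of CAR and of its relative PXR. Cyp1a2 is best known as a target of the aryl hydrocarbon receptor AHR, and in mouse liver it is made mainly around the central vein. Several Cyp3a genes, Cyp3a44 and Cyp3a41 among them, are female-predominant in adult mouse liver.

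Cyp2a4 and Cyp2a5 have nearly the same promoter. The stretches below come from RefSeq (GRCm38.p6), run 5′ to 3′ on the strand of the gene and end 1 base before the annotated start, except for Alas1. Cyp2a4 and Cyp2a5 are shown because 1 probe set reads both. When the 250 bases before the start were aligned with free end gaps, 245 of 249 aligned bases were identical between them (98.4%). Cyp3a11 matched Cyp3a44 at 192 of 235 aligned bases, Cyp3a25 at 162 of 204 and Cyp3a13 at 157 of 218. Such shares come out high over short alignments of less related genes too, as with Cyp3a13 and Cyp2a4, at 72 of 90. Capitals mark the TATA box TATAAA.
Cyp2a4, chr7:26307072-26307191, plus strand: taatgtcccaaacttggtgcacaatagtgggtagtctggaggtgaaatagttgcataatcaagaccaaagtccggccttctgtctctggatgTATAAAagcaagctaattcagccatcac
Cyp2a5, chr7:26835219-26835338, plus strand: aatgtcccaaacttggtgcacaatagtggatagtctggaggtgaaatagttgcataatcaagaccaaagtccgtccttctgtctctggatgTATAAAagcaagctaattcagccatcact
Cyp1a2, chr9:57683656-57683775, minus strand: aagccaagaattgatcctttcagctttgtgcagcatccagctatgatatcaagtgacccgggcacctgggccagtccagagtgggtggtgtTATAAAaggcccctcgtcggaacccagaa

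Cyp3a44, Cyp3a11 and Cyp3a25 are neighbours on chromosome 5 with no other coding gene between them, and are shown because their signals took different courses. Capitals mark the nuclear receptor hexamer AGGTCA (on either strand, so also TGACCT) and the HNF4-type motif CAAAGTNCA.
Cyp3a11, chr5:145879855-145880034, minus strand: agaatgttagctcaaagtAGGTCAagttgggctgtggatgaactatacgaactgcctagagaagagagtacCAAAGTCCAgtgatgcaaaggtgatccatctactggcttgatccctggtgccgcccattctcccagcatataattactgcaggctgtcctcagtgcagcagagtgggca
Cyp3a44, chr5:145805875-145806054, minus strand: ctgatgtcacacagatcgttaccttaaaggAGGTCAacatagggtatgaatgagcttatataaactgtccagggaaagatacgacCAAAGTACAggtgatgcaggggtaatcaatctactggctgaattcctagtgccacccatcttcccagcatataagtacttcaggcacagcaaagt
Cyp3a25, chr5:146009619-146009798, minus strand: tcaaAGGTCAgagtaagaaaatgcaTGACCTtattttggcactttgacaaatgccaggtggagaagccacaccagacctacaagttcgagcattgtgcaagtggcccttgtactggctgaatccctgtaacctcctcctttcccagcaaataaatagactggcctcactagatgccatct

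Alas1 had 2 annotated starts, and the stretch below runs from 250 to 131 bases before the second in the table. It is shown for its pair of matches to the motif of the respiratory factor NRF1 (GCGCA and GCGC with 1 base between), in capitals. The match nearer the start reads the same on both strands, and the other overlaps the AHR core GCGTG.
Alas1, chr9:106247861-106247980, minus strand: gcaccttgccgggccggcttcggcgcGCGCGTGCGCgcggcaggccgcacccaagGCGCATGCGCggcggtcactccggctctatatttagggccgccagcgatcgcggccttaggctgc

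All 9 symbols were in the promoter table, with 11 starts. The motifs below were searched on both strands of the 250 bases before each start. AGGTCA lay in 4 of the 11 promoters, a pair of them the same Cyp3a25 site seen from starts 1 base apart, and in 14% of all 32851 in the table, CAAAGTNCA in 2 and in 1.19%, the NRF1 motif in 1 and in 3.74%, TATAAA in 5 and in 12.4%, and GCGTG in 2 and in 28.2%. The direct repeat of AGGTCA with a gap of 4 bases (0.0152% of all promoters), TGAACT followed after 6 bases by AGGTCA (0%), CACGTG (6.02%) and TTATGTAA (0.819%) lay in 0 of the 11. The TATAAA matches of Cyp2a4, Cyp2a5 and Cyp1a2 began at -28, -29 and -29 from the start, the first 2 in nearly identical promoters. Those of Cyp3a44 and Cyp3a11 began at -122 and -234, farther from the start. All of these are matches of letters in short windows and not binding sites.

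Liver identity and TCPOBOP action were plain on the arrays. Albumin had a signal of 38805 to 69876 in MET KO + EGFRi and of 37254 to 77081.5 in control, and Cyp2b10, the standard CAR target, had 356 at day 0 and 32027 to 48292 later in MET KO + EGFRi, against 444 and 33939 to 45578 in control. Ratios of 3′ to 5′ actin signal, a sign of RNA integrity, ran from 1.57 to 2.36 in MET KO + EGFRi and from 1.575 to 1.90 in control. In pooled tissue, fewer cells of a type and less RNA per cell cannot be told apart.

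Cyp1a2 rose after TCPOBOP, and was the one P450 gene of the set whose rise passed the test. It had a signal of 3846, 16277, 23326 and 29276 on days 0, 1, 2 and 5 in MET KO + EGFRi livers, against 9748, 28787, 24935 and 27035 in control livers. The day 0 arrays were the lowest in both arms, with the MET KO + EGFRi array of day 0 the lowest of all. By day 2 the arms were close together. The mean of days 1, 2 and 5 lay 1.99 above day 0 on the log2 scale (SE 0.28, a fold of 3.96, 8 arrays, limma adjusted p = 0.0320), and higher on every later day in both arms. It was 1 of 7 called in this comparison, against 0.496% of all features (0.424% called higher).

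The call on Cyp1a2 rested on nearly every array. Leaving out the control array of day 5 kept it (adjusted p = 0.0459). It was lost when any of the other 7 arrays was left out: the control arrays of day 0 (adjusted p = 0.0763), day 1 (0.115) or day 2 (0.0549), or the MET KO + EGFRi arrays of day 0 (0.225), day 1 (0.0914), day 2 (0.0610) or day 5 (0.0823). Without a filter on dim genes it had an adjusted p of 0.0951, and without a variance trend 0.0526. The difference itself stayed between 1.46 and 2.52 in the fits without an array. In this fit the 2 arms served as the repeats of a day. These p-values therefore rest on how far the gap between the arms varied from day to day. They do not measure the spread between animals.

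All 7 features lay above day 0 after TCPOBOP, with a median log2 difference of 1.05, against -0.02 over all 12488 features. All 7 had an unadjusted p under 0.05, as did 10.4% of all features. Among them, Cyp3a44 passed the filter on dim signals only through its later arrays, so the filter favoured a rise in that feature. For the 6 other than Cyp1a2 the adjusted p was between 0.0865 for Cyp3a25 and 0.367 for Alas1. In 4 of 7 (Cyp3a11, Cyp3a13, Cyp3a25 and Cyp1a2) all 6 later arrays were above both day 0 arrays, as in 6.02% of all features. Outside the set, the abundant hepatocyte genes albumin, Apoa1 and Hpx met the same criterion, while Ttr, Fgb and Tat did not. The size of the differences depended on array scaling: with quantile normalization, described below, those of the 7 ran from 0.35 to 2.20.

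**Figure D1:**
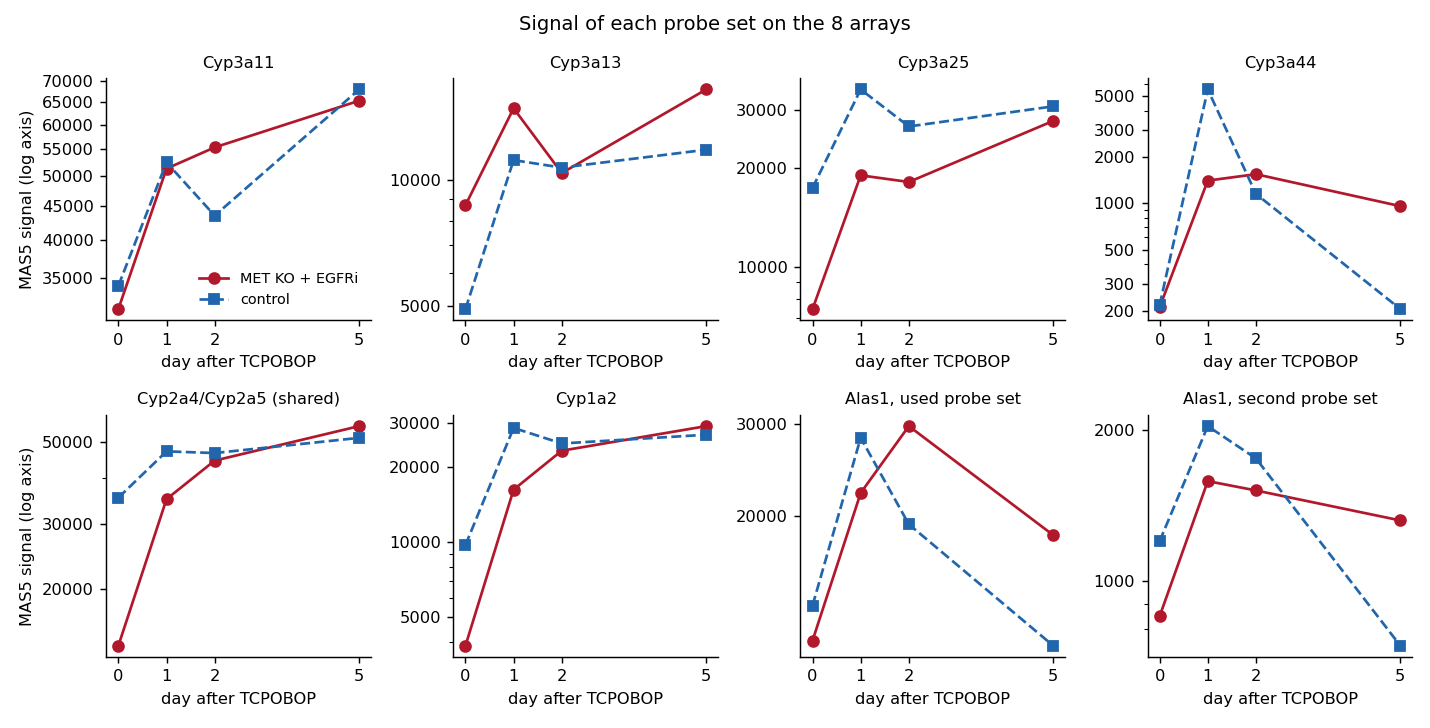
MAS5 signal (log axis, scaled separately in each panel) of each probe set against the day after TCPOBOP, for MET KO + EGFRi (circles) and control (squares), 1 array per point. Cyp1a2 and the shared Cyp2a4/Cyp2a5 probe set start lower in MET KO + EGFRi and meet control by day 2, and Cyp3a44 has its highest point, 5544, in control at day 1.

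Cyp3a11, the most studied Cyp3a enzyme of mouse liver, had nearly equal signals in the arms. It had 31341, 51387, 55377 and 65261 on days 0, 1, 2 and 5 in MET KO + EGFRi livers, against 34017, 52518, 43551 and 67908 in control livers. The arms overlapped, and day 2 was the only day on which MET KO + EGFRi was higher. The arm difference was 0.03 on the log2 scale (SE 0.14, 95% interval -0.30 to 0.37, limma adjusted p = 0.957). Its sign turned to -0.10 after quantile normalization and to -0.07 without either array of day 2. Later days lay 0.76 above day 0 (SE 0.17, limma adjusted p = 0.146).

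The size of that increase in Cyp3a11 depended on how the arrays were scaled. Its signal was 63.6% to 89.1% of the highest signal on the array, and 4 abundant hepatocyte genes also lay above day 0 on later days. Albumin, apolipoprotein Apoa1, transthyretin (Ttr) and hemopexin (Hpx) had log2 differences of 0.62, 0.58, 0.40 and 0.57 between later days and day 0. After quantile normalization, which gives every array the same distribution of signals, these were 0.16, 0.15, -0.03 and 0.12. Not every bright gene did so: fibrinogen Fgb, with 28857 to 57675 on the 8 arrays, had 0.14 with the deposited scaling, and Tat, with 14118 to 29468, had -0.36. Cyp3a11 had 0.35 after quantile normalization, while Cyp1a2 kept 1.82 and Cyp3a44 2.20. The shared Cyp2a4/Cyp2a5 probe set had 0.68 in place of 1.05, and Alas1 0.46 in place of 0.72. The genes whose course was most like that of Cyp3a11 over the 8 arrays were Cyp26a1, the probe set shared by the Ugt1a genes, and Clu (Pearson r = 0.985, 0.973 and 0.971, among 3518 features with a log2 range of at least 1).

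**Figure D2:**
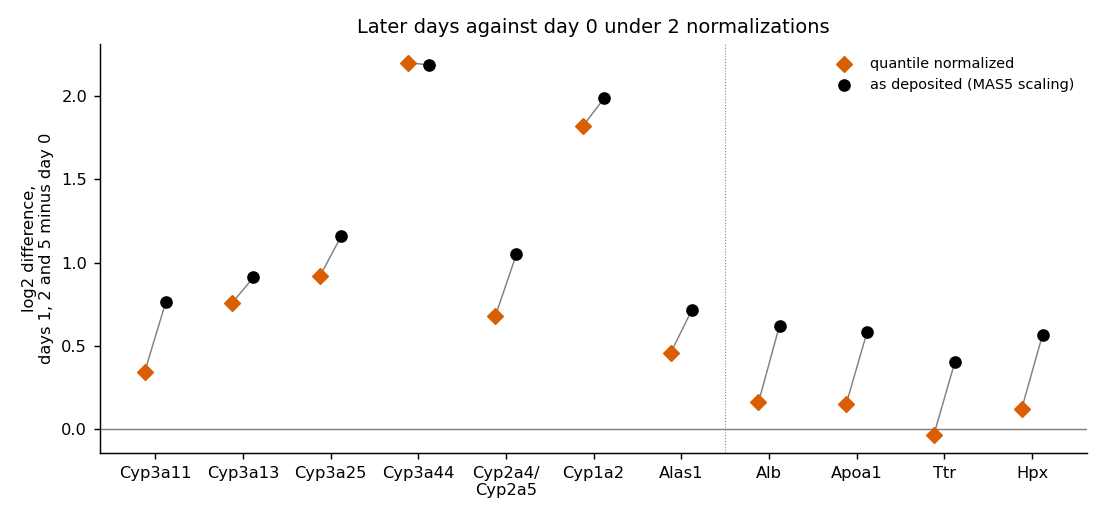
Log2 difference between days 1, 2 and 5 and day 0, averaged over both arms, after quantile normalization (diamonds) and with the deposited scaling (circles). The dotted line parts the 7 features from 4 abundant hepatocyte genes, which drop from between 0.40 and 0.62 to between -0.03 and 0.16; Cyp3a11 drops to 0.35.

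Cyp3a13, a family member that is also made in the intestine, had 8712, 14848, 10402 and 16474 in MET KO + EGFRi, against 4922, 11166, 10718 and 11824 in control. MET KO + EGFRi was higher on 3 of 4 days, by the most at day 0. The arm difference was 0.41 (SE 0.16, 95% interval 0.04 to 0.79, limma adjusted p = 0.364). Later days were 0.91 above day 0 (SE 0.19, limma adjusted p = 0.114). In control every later day was more than 2-fold above day 0, and in MET KO + EGFRi none was. The control changes were near that threshold: after quantile normalization they were 0.99, 0.98 and 1.07 on the log2 scale.

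Cyp3a25 was the one feature of the set below control on 4 of 4 days, as were 10.2% of all features. It had 7437, 18972, 18109 and 27782.5 in MET KO + EGFRi, against 17369, 34624, 26713 and 30756.5 in control. The gap was widest at day 0, a signal ratio of 0.428, and had a ratio of 0.903 at day 5. The arm difference was -0.70 (SE 0.19, 95% interval -1.13 to -0.27, limma adjusted p = 0.203). Later days lay 1.16 above day 0 (SE 0.22, limma adjusted p = 0.0865, and 0.0482 when features under the upper quartile of the mean signal were left out).

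Cyp3a44 was the dimmest. Its mean log2 at day 0 was 8.15, under the filter of 8.24, so it passed the filter only through later arrays. Its SD over days was 1.17 in MET KO + EGFRi, where Cyp1a2 had 1.31, and 2.06 in control, the highest of the 7. It had 210.3, 1409, 1552 and 960.3 in MET KO + EGFRi, against 217, 5544, 1155 and 205 in control. Control was highest at day 1 and near its day 0 signal on day 5. In MET KO + EGFRi the signal was lower at day 1, with a ratio of 0.254, and higher at day 5, where the control signal was below the median of its array (243.2). Both day 0 signals were also below the medians of their arrays (239.3 in MET KO + EGFRi and 250.6 in control). Averaged over days the arms differed by 0.09 (SE 0.50, limma adjusted p = 0.968), with a 95% interval of -1.07 to 1.24. This sign turned without either array of day 2 (-0.02) or day 5 (-0.52), and with the median signal as pseudocount (-0.01). Later days lay 2.19 above day 0 (SE 0.58, limma adjusted p = 0.235).

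A close relative outside the set, read on a probe set shared by Cyp3a41a and Cyp3a41b, was higher in MET KO + EGFRi than in control livers. It had 18957, 19548, 18214 and 8704 in MET KO + EGFRi, against 6248.5, 1264, 3313 and 442 in control. The arms did not overlap; 3.53% of all tested features were higher with no overlap. Within each arm the lowest signal was that of day 5. The log2 difference was 3.00 (SE 0.39, limma adjusted p = 0.0185, higher on 4 of 4 days). Without a day 0 array the call held (adjusted p 0.0147 without control and 0.0133 without MET KO + EGFRi). It was lost without the control array of day 1 (0.113), day 2 (0.0697) or day 5 (0.0687), or the MET KO + EGFRi array of day 1 (0.115), day 2 (0.0699) or day 5 (0.0686). It was also lost without a filter on dim genes (0.0658). Sequences of this family are alike enough that a probe set may bind several members, and the parts of each in a signal were not tested. Cyp3a41 and Cyp3a44 are female-predominant and the labels do not give the sex of the mice. The part of sex in these signals was not tested.

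The shared Cyp2a4/Cyp2a5 probe set reads a testosterone hydroxylase and the coumarin hydroxylase of mouse liver. It had 14025, 35027, 44549.8 and 55249 in MET KO + EGFRi, against 35344.5, 47194, 46701 and 51346 in control. The MET KO + EGFRi array of day 0 stood apart from the other 7, at a ratio of 0.397 to control, and by day 2 the ratio was 0.954. The arm difference was -0.43 (SE 0.23, 95% interval -0.97 to 0.11, limma adjusted p = 0.524), and -0.13 without either array of day 0. In control, the changes from day 0 were 0.42, 0.40 and 0.54 on days 1, 2 and 5. Quantile normalization made them -0.04, 0.31 and -0.16, so in control the sign held on day 2 and turned on days 1 and 5. In MET KO + EGFRi the changes were 1.32, 1.66 and 1.97, and 1.16, 1.31 and 1.5 after quantile normalization.

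Of the set, limma called 0 of 7 between the arms, where 0.593% of all features were called. At an unadjusted p under 0.05 there were 2 of 7, Cyp3a13 and Cyp3a25, against 12.1% of all features. At day 0, 3 of 7 (Cyp3a25, Cyp2a4/Cyp2a5 and Cyp1a2) were at least 2-fold lower in MET KO + EGFRi, against 2.17% of all features, and 0 were 2-fold higher, against 2.62%. At day 1 it was 1 of 7, Cyp3a44, against 2.63%, with 0 higher, against 2.86%. At day 2 there were 0 in either direction, against 2.84% of all features higher and 2.03% lower. At day 5 Cyp3a44 was at least 2-fold higher, against 2.27% of all features, and 0 were lower, against 2.15%. The median difference of the 7 was -0.22, -0.43, -0.04 and 0.12 on days 0, 1, 2 and 5, against -0.03 to 0.02 over all features. Each day rests on 1 array per arm, and no p-value was computed.

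**Figure D3:**
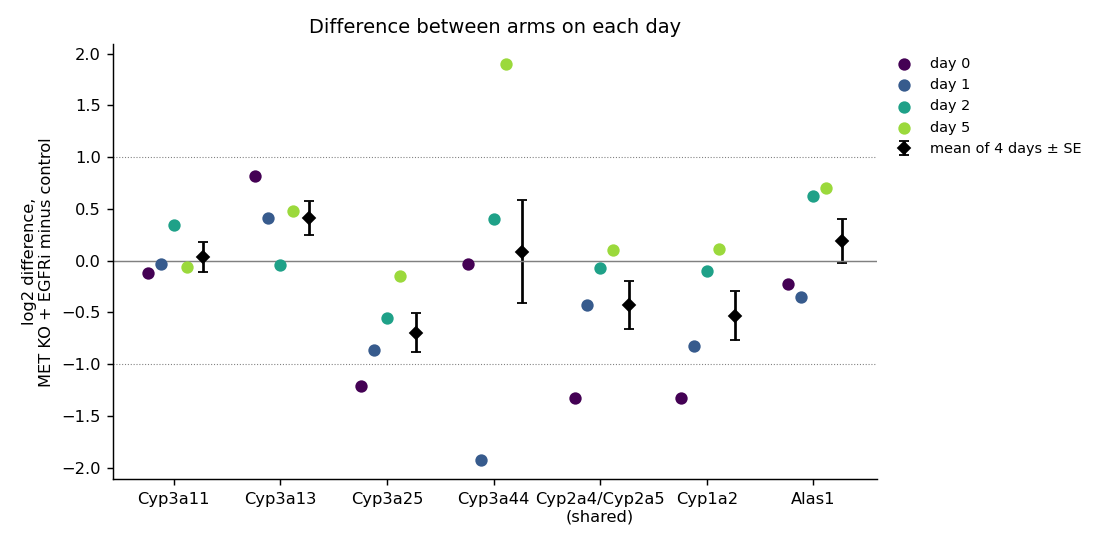
Log2 difference, MET KO + EGFRi minus control, on each day (circles, 1 array per arm) and its mean over the 4 days with the standard error of the limma fit (diamonds). Dotted lines mark 2-fold. Cyp3a25, Cyp2a4/Cyp2a5 and Cyp1a2 lie below -1 at day 0 and near 0 at day 5.

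Whether the change after TCPOBOP differs between the arms was tested as an interaction. The change was larger in MET KO + EGFRi by 1.20 on the log2 scale for Cyp2a4/Cyp2a5 (SE 0.39, 95% interval 0.27 to 2.13) and by 1.06 for Cyp1a2 (SE 0.44, 95% interval 0.01 to 2.11). Neither was called: limma called 0 of all 12488 features (0%). At an unadjusted p under 0.05 there were 551 features (4.41%), these 2 among them. For the other 5 the difference ran from -0.53 for Cyp3a13 to 0.69 for Cyp3a25. Day 0 enters this comparison as 1 array per arm, and the comparisons of arms and of days share those arrays. Changes from day 0 within the arms are therefore given side by side. In MET KO + EGFRi, 4, 5 and 5 of 7 features were at least 2-fold above day 0 on days 1, 2 and 5, against 1.59%, 2.14% and 2.87% of all features. In control it was 4, 3 and 2 of 7, against 2.55%, 2.60% and 2.79%. Cyp3a44, which passed the filter only through later arrays, was counted on every later day in MET KO + EGFRi and on days 1 and 2 in control. After quantile normalization the counts were 4, 5 and 4 of 7 in MET KO + EGFRi and 2, 2 and 2 of 7 in control.

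**Figure D4:**
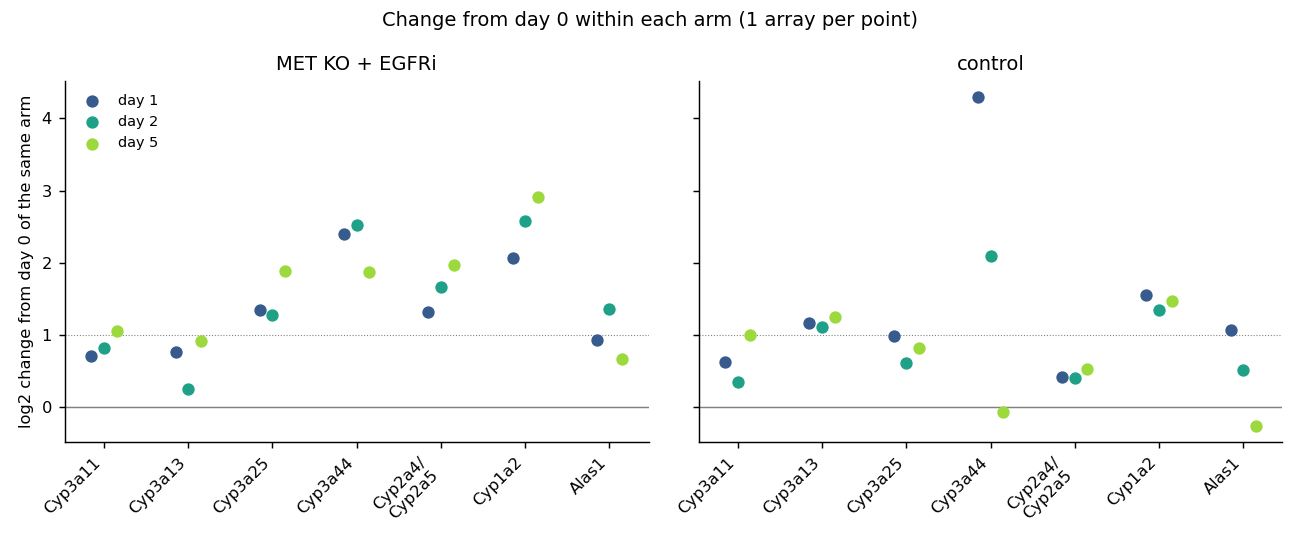
Log2 change of days 1, 2 and 5 from day 0 of the same arm, MET KO + EGFRi on the left and control on the right, 1 array per point, with the dotted line at 2-fold. Cyp1a2 lies between 2.06 and 2.91 in MET KO + EGFRi and between 1.35 and 1.56 in control.

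Alas1 had 11518, 22130.4, 29740.3 and 18361 on days 0, 1, 2 and 5 in MET KO + EGFRi, against 13451, 28239.6, 19269 and 11259.8 in control. The highest array was day 2 in MET KO + EGFRi and day 1 in control. At day 5 control was below its own day 0 signal, and MET KO + EGFRi was above its own. The second, much dimmer probe set, whose name ending (_x_at) marks possible binding of other RNAs, had 848, 1578, 1512 and 1318 in MET KO + EGFRi, against 1197, 2031.5, 1751.5 and 741 in control. It shared the higher signal of MET KO + EGFRi at day 5 but not at day 2, and its highest array was day 1 in both arms. Over the 4 days the arm difference was 0.19 (SE 0.21, 95% interval -0.30 to 0.67, limma adjusted p = 0.785), and -0.06 on the second probe set. Later days lay 0.72 above day 0 (SE 0.24, limma adjusted p = 0.367), and 0.47 on the second.

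The course of Alas1 was most like that of Cyp3a44 (r = 0.929 over the 8 arrays), followed by Klhl25 (0.906) and Habp4 (0.883). For Cyp1a2 the most similar were Kat2a (0.978), Cnmd (0.973) and Ephx1 (0.968), microsomal epoxide hydrolase. These correlations describe 8 arrays that share arm and day.

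Other enzymes carry the product of Alas1 on to heme. Of 7 heme synthesis genes tested, Alas1 included, 0 were called in any of the 3 comparisons, where 0.593%, 0.496% and 0% of all features were. At an unadjusted p under 0.05 there were 2, 2 and 0 of the 7, against 12.1%, 10.4% and 4.41% of all features. The median arm difference was -0.16. Alad, which joins the 5-aminolevulinate made by Alas1, had 2396, 2893, 2849 and 3107 in MET KO + EGFRi, against 3784, 3914, 4476.5 and 4200.2 in control (difference -0.53, SE 0.12, limma adjusted p = 0.15). The arms of Alad did not overlap; 2.72% of all tested features were lower with no overlap. Ppox had -0.56 (limma adjusted p = 0.378) and Cpox -0.20 (0.590), both lower on 4 of 4 days. Ferrochelatase (Fech), which puts iron into the ring, had 0.12 between arms and 0.47 between later days and day 0 (limma adjusted p = 0.374). Uros and Urod had arm differences of -0.16 and 0.14.

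Heme breakdown and handling genes also had 0 of 12 called in each comparison, with 4, 5 and 0 at an unadjusted p under 0.05 (12.1%, 10.4% and 4.41% of all features) and a median arm difference of 0.10. Heme oxygenase Hmox1, which degrades heme, had 1236, 1077, 989 and 939 in MET KO + EGFRi, against 898, 809.6, 543 and 516 in control. MET KO + EGFRi was higher on 4 of 4 days and the arms did not overlap (0.60, SE 0.14, limma adjusted p = 0.15). Of all tested features 3.53% were higher with no overlap. Biliverdin reductase Blvrb had 0.40 (0.292), the mitochondrial iron carrier Slc25a37 -0.66 (0.356) and the heme transporter Slc48a1 -0.38 (0.410). Signal from blood was also present: of 12 erythroid symbols 5 features were tested, whose summed signal was 29104 to 65845 in MET KO + EGFRi and 23850.3 to 45544 in control. The erythroid isoform Alas2 had 551 to 986 in MET KO + EGFRi and 520.4 to 1659 in control. None of the erythroid features was listed at 0, and their part in the heme gene signals was not tested.

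Among the electron donors, cytochrome b5 reductase Cyb5r3 was lower in MET KO + EGFRi than in control livers, day 0 included. It had 6533, 7296, 7336 and 7640.3 in MET KO + EGFRi, against 11308, 13926, 13201 and 13330.5 in control. The arms were well apart on every day (difference -0.84, SE 0.12, limma adjusted p = 0.0303, 0.168% of features called lower). This call was lost in each of the 8 fits that left out 1 array, with adjusted p from 0.0837 to 0.253 and a difference of -0.86 to -0.81. It was also lost with the mean of its probe sets (-0.56, adjusted p = 0.164), without _s_at and _x_at probe sets (0.0927), without a filter (0.0698) and without a variance trend (0.0543). The outer mitochondrial cytochrome b5, Cyb5b, had -0.58 (0.155), ferredoxin Fdx1 -0.33 (0.451) and microsomal cytochrome b5, Cyb5a, 0.09 (0.840). Cyb5a lay 0.71 above day 0 on later days (limma adjusted p = 0.155). Of the 6 listed donors 4 were measured, and 1 was called.

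**Figure D5:**
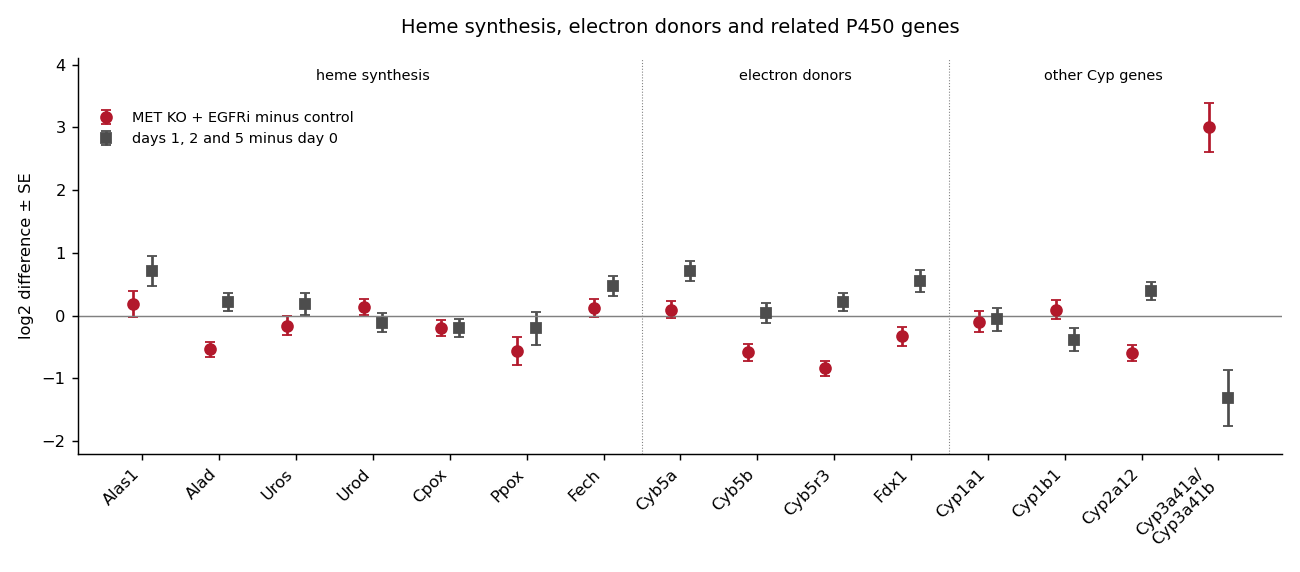
Log2 difference with its standard error, MET KO + EGFRi minus control (circles) and days 1, 2 and 5 minus day 0 (squares), for heme synthesis genes, electron donors and other Cyp1, Cyp2a and Cyp3a genes. The shared Cyp3a41a/Cyp3a41b probe set at 3.00 and Cyb5r3 at -0.84 are the features called between arms.

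Of the other Cyp1, Cyp2a and Cyp3a genes, 4 features were tested and 1, the Cyp3a41a/Cyp3a41b probe set, was called between the arms. Of all features 0.593% were called between the arms (0.424% higher). Cyp2a12, which hydroxylates steroids, had 12976 to 21373 in MET KO + EGFRi and 20099.5 to 33691 in control, lower on 4 of 4 days (-0.59, SE 0.12, limma adjusted p = 0.117). Cyp1a1 and Cyp1b1, the other AHR-inducible family members, had 414 to 654 and 379 to 489 in MET KO + EGFRi, and 526 to 649 and 335 to 572 in control. Their differences between later days and day 0 were -0.06 and -0.38, beside 1.99 for Cyp1a2. Of 6 AHR target genes 4 were tested, Cyp1a1 and Cyp1b1 included, with 0 called in each comparison. Their median between later days and day 0 was -0.22, with Tiparp at -0.89 and Nqo1 at 0.53. At an unadjusted p under 0.05 there were 0, 1 and 0 of these 4, against 12.1%, 10.4% and 4.41% of all features.

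Regulators of these genes gave 0 of 14 called in each comparison, with 2, 3 and 3 at an unadjusted p under 0.05, against 12.1%, 10.4% and 4.41% of all features. Nr1i3, encoding CAR, had 1408.5, 863, 790.0 and 1708.5 in MET KO + EGFRi, against 3141, 2065, 1783.5 and 1887 in control. It was lower on 4 of 4 days with no overlap of the arms (-0.89, SE 0.19, limma adjusted p = 0.13), and 2.72% of all tested features were lower with no overlap. Nr1i2, encoding PXR, differed by 0.04 (0.969). The clock factor Dbp had 1278, 1799, 5211 and 3025 in MET KO + EGFRi, against 5908, 4935, 5226 and 1640 in control (-0.68, limma adjusted p = 0.593). Hnf4a had 0.64 (0.178) and the corepressor Nr0b2 -0.57 (0.479). Ahr had 2399, 3149.7, 1969.9 and 3183 in MET KO + EGFRi, against 1046, 2918, 2360.3 and 2639.9 in control, and an arm difference of 0.32 (0.627).

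Of the markers of other cells, those of macrophages and neutrophils were mostly higher in MET KO + EGFRi. Kupffer cell and macrophage markers were higher in MET KO + EGFRi for 12 of 12, 1 of them called (Cd5l), with a summed signal of 30491.5 to 53190 against 16965 to 37261 in control. Neutrophil and monocyte markers were higher for 7 of 9, 3 of them called (S100a8, S100a9 and Prtn3), with a summed signal of 9105 to 10688.5 against 4746 to 5293. Over all features 0.424% were called higher. None was listed at 0. Hepatocyte markers had a summed signal of 243063 to 325432 in MET KO + EGFRi and of 203778 to 322525.5 in control. Of these, 7 of 8 were higher and 0 were called. At an unadjusted p under 0.05 there were 3 of these 8, against 12.1% of all features. For macrophage markers it was 7 of 12, and for neutrophil and monocyte markers 6 of 9. The median arm differences of macrophage, neutrophil and hepatocyte markers were 0.56, 0.40 and 0.18, against 0.001 over all features. Endothelial (5 of 8 higher), stellate (2 of 6 higher, Dcn called) and cholangiocyte markers (1 of 2 higher) had medians between -0.10 and 0.05. The part of these cells in the differences between arms was not tested.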

How the data were processed

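The deposited intensity values were made by the authors with MAS5, per the submitters' processing notes, from 6 µg of total RNA of pooled livers per array, per the labels' protocols. They are linear signals with a mean of 500 on each array after trimming 2% at each end. The MAS5 version, masking and detection calls are not given in the sources used here. Of 45101 probe sets 64 controls were left out. Of the other 45037, 34957 had 1 gene in the platform's table, 920 several (kept as shared features) and 9160 none. The log2 was taken of each signal plus 71, a pseudocount equal to the lower quartile over all arrays. A gene was read from its brightest probe set and kept at a mean log2 of at least 8.24, the median. Additive terms for arm and day were fitted in limma (3.58.1, R 4.3.3) with 3 residual degrees of freedom, or with an interaction of arm and TCPOBOP (2), with a variance trend and Benjamini-Hochberg adjustment over 12488 features. Calls needed an adjusted p under 0.05. Intervals are 95% limma intervals. Single days were compared by signal and a 2-fold threshold. The tests were also run on simulated data with independent noise and constant shifts added. Such data cannot show how 1 pool per group or the array scaling affects the calls. The members and gene lists were chosen with earlier results of these data known. All members were named, and of each list the called genes and up to 4 with the largest arm difference; the other genes named were chosen after their values were seen. Precision is limited by the number of arrays.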

Additional observations from a re-analysis of the deposited data

How the results depend on the processing

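Mice could not be paired, because the labels give no replicate numbers and each group has 1 array. Day served as the block, so the arms were compared within days. Between arms 74 features were called, with 27 without a filter on dim genes and 20 to 53 in the fits without 1 array. Of the 7 features of the set, 0 were called between arms in every alternative tried. After TCPOBOP 62 features were called, with 28 without a filter, 94 with a filter at the upper quartile, 39 with the mean of probe sets, 36 without a variance trend and 4 to 51 without 1 array. Of the 7, 1 was called, with 0 without a filter or without a variance trend, 2 with a filter at the upper quartile (Cyp1a2 and Cyp3a25), and 0 to 1 without 1 array. The interaction had 0 calls in each alternative, and could not be fitted without a day 0 array. Control features at least 2-fold above day 0 at day 1 numbered 2 of 7 after quantile normalization, against 4. The count was 2 against 3 in control at day 2, and 4 against 5 in MET KO + EGFRi at day 5. Sign changes met differences near 0, apart from Cyp3a44: the arm difference of Cyp3a11 was -0.104 after quantile normalization and -0.069 without either day 2 array (-0.069 to 0.086 over the fits without 1 array). That of Cyp3a44 was -0.008 with the median as pseudocount, -0.017 without either day 2 array and -0.517 without either day 5 array (-0.517 to 0.759). The interaction of Cyp3a44 was -0.727 without either day 5 array (-0.727 to 1.187), against 0.16. The causes were not tested. The shared Cyp2a4/Cyp2a5 probe set had no value without _s_at and _x_at probe sets. Signals near the top of the scale, and the dim signals of Cyp3a44, limit those genes.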
